A study of Mus musculus with 98 samples.

Results

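The cytosolic ribosomal protein genes are described here across 4 mouse tissues, in animals whose liver had been rebuilt from human or from mouse hepatocytes. Members are the mouse genes whose symbol is Rpl or Rps with a number (and at most a letter and a further digit), together with Rplp0, Rplp1, Rplp2 and Rpsa. The pattern found 82 genes, all 82 of them in both deposited count tables, among 19689 mouse genes of the liver table and 20415 of the table of the other tissues. A mean of at least 5 CPM (each gene's count per mega-count of mouse counts in its library) was then asked for in each tissue, which left 80 members in liver, 81 in skeletal muscle, 80 in the arcuate nucleus (ARC) and 80 in the suprachiasmatic nucleus (SCN). Nearest below that level was Rpl39l in muscle, at a mean of 0.543 CPM, and nearest above it was Rps27l in SCN, at 9.58 CPM. Rpl39l was below it in every tissue, and Rpl3l in every tissue but muscle. The pattern leaves out genes such as Fau and Rack1, whose products are also parts of the ribosome, and it takes in Rpl7l1, a relative of Rpl7 known as a ribosome assembly factor of the nucleolus.

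The mice were 10-week-old FRGN males, which lack Fah, Rag2 and Il2rg on a NOD background, so both arms carried the same deletions and were immunodeficient. Livers held human hepatocytes in the Hu arm, in animals selected for over 70% repopulation, and mouse hepatocytes in the Mu arm, the control. Both arms passed through the regimen that goes with such grafts, with the protective drug NTBC, antibiotics and dextrose. Tissue was collected at 6 zeitgeber times (ZT, in hours from the start of the light phase), namely 2, 6, 10, 14, 18 and 22. This gave 15 Hu and 12 Mu libraries each of liver and muscle, and 10 Hu and 12 Mu libraries each of ARC and SCN. A rebuilt Hu liver keeps the host's own non-hepatocyte cells and any hepatocytes not replaced. Mouse counts in it are read as coming from those cells, though how reads that match both species were assigned is not given.

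Mouse counts per library ran from 7.70 to 87.9 M (mega-counts) in Hu liver, 97.1 to 118.3 M in Mu liver, 43.1 to 92.05 M in muscle, 23.7 to 47.1 M in ARC and 25.5 to 34.95 M in SCN. Human rows took 15.86 to 93.07% of the counts of Hu livers, and 11 of the 15 were under 70%. Alb was at a median of 65000 CPM in liver and Ckm at 18300 CPM in muscle. Pomc and Agrp, markers of the ARC, were at medians of 33.7 and 6.61 CPM there and at 1.99 and 0.525 CPM in SCN. The SCN markers Vip and Prok2 did not set the SCN libraries apart, with medians of 3.84 and 0.896 CPM there against 4.21 and 0.617 CPM in ARC, and Avp was at a lower median in SCN (64.7 CPM) than in ARC (200.2 CPM). The labels do not say whether libraries of a group came from separate animals, so p-values measure the spread between these samples.

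Each ribosome is built from a small and a large subunit, most of whose proteins are needed in equal numbers, and cells make their messenger RNAs together. Most of these transcripts begin with a stretch of pyrimidines (C and T), the terminal oligopyrimidine or TOP motif, through which mTOR signalling and the protein Larp1 control their translation. In mouse liver, translation of TOP messengers is known to follow feeding and the daily clock, while in muscle the large subunit protein Rpl3 is largely replaced by its relative Rpl3l.

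RefSeq start regions (build GRCm38.p6) were available for 62 of the 82 members and are shown for 9 whose values are given below. Each line runs 5′ to 3′ from 25 bases before the annotated start to 20 bases from it, and capitals mark the longest pyrimidine run. The first 7 were called higher in Hu muscle, and the last pair, Rpl7l1 and Rpl3l, were among the 4 members not called there. Whether the run goes with the level difference was not tested.
Rpl38: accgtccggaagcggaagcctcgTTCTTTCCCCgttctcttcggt
Rplp0: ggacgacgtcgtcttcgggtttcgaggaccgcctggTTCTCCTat
Rpl4: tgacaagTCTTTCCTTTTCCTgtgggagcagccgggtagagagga
Rpl12: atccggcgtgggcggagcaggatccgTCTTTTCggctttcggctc
Rps12: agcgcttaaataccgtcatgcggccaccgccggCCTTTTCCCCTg
Rps4x: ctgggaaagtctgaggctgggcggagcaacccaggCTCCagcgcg
Rpl28: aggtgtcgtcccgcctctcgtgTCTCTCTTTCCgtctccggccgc
Rpl7l1: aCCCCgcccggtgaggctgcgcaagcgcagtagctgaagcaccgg
Rpl3l: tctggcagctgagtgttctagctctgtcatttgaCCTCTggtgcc

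These stretches lie at chr11:114668555-114668599 (Rpl38, plus strand), chr5:115559442-115559486 (Rplp0, plus), chr9:64173362-64173406 (Rpl4, plus), chr2:32961687-32961731 (Rpl12, plus), chr10:23787190-23787234 (Rps12, minus), chrX:102189372-102189416 (Rps4x, minus), chr7:4792940-4792984 (Rpl28, plus), chr17:46782637-46782681 (Rpl7l1, minus) and chr17:24727801-24727845 (Rpl3l, plus). The longest run was of 14 bases in Rpl4, 11 in Rpl28 and Rps12, and 10 in Rpl38, where it began 2 bases before the annotated start. For Rpl38 and Rps12 the start used lies inside the RefSeq span of the gene, whose 5′ end is at chr11:114667818 and chr10:23787383. It was of 4 bases in Rpl7l1 and Rps4x and of 5 in Rpl3l. A run of at least 8 C or T on the gene's own strand within 50 bases of the start was found in 52 of the 62 members (83.9%), against 39.3% of 27025 genes with a start region. Over the whole 300 base window, CGGAAG on either strand was in 42 of the 62 members (67.7%) and in 18.8% of the genes. CACGTG, which reads the same on both strands, was in 6 of the 62 members (9.68%) and in 8.09% of the genes. A match describes the letters in the window and not a binding site.

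In skeletal muscle, ribosomal protein messengers as a group were higher in mice with human hepatocytes. Summed over the members, they took 1.12 to 1.26% of counts in the 12 Mu libraries (median 1.197%) and 1.28 to 2.17% in the 15 Hu libraries (median 1.419%). Every Hu library lay above every Mu library, although the lowest Hu value and the highest Mu value were close. By edgeR's quasi-likelihood test, 77 of the 81 members were higher in Hu and 0 were lower, at a Benjamini-Hochberg adjusted p under 0.05 over all genes. Of all 14197 genes tested in muscle, 13.5% were called higher and 13.3% lower. The median difference of the members was 0.35 on the log2 scale, or 1.28-fold, against 0.03 for all genes tested. The large subunit had 46 of 49 members called and the small subunit 31 of 32, with median differences of 0.34 and 0.37. In bulk tissue, fewer cells of a type and less RNA per cell cannot be told apart.

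**Figure D1:**
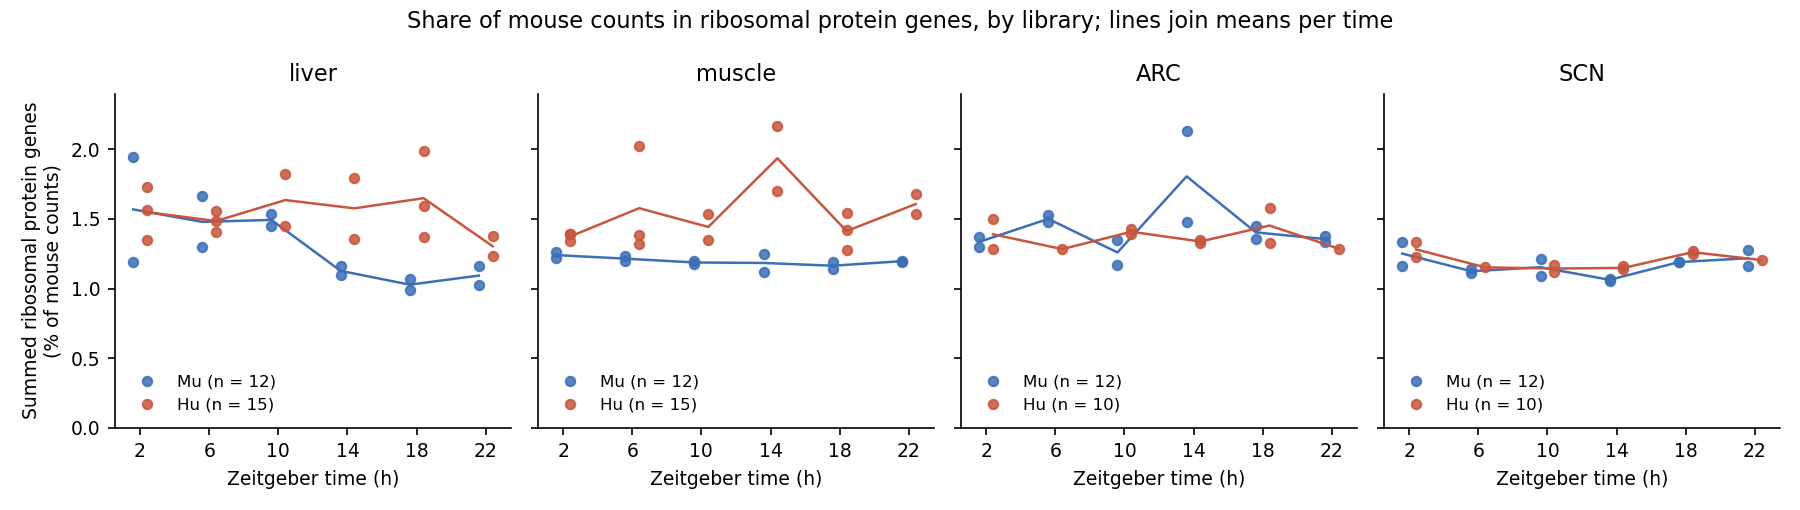
Summed share of mouse counts in ribosomal protein genes (vertical axis, %) against zeitgeber time (horizontal axis, h) in liver, muscle, ARC and SCN, with 1 point per library (Mu blue, Hu red) and lines through the means per time. In muscle the Hu points, from 1.28 to 2.17%, lie above the Mu points, from 1.12 to 1.26%, and in liver the Mu points fall from the early to the late times.

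Rps4x, a small subunit protein encoded on the X chromosome, gave the clearest separation. Its TMM-scaled CPM (trimmed mean of M values, edgeR's correction for composition) ran from 191 through a median of 208 to 229 in Mu and from 232 through 274 to 411 in Hu. All 15 Hu libraries lay above all 12 Mu libraries, and the difference was 0.50 ± 0.07 on the log2 scale (SE, edgeR adjusted p = 9.0e-05).
Rps12, also of the small subunit, was the only other member without overlap between the arms with TMM, at 122 to 139 CPM in Mu and 140.4 to 292 CPM in Hu. Such a full separation upwards was seen in 2 of 81 members and in 0.0563% of the genes tested with TMM, and in 22 members and 0.204% of the genes with library size only.
Rpl12, a protein of the stalk base where translation factors bind, ran from 113 through 130.0 to 146 CPM in Mu and from 145 through 179 to 283 CPM in Hu, so that the arms overlapped by 1 Hu library. It differed by 0.59 ± 0.08 (edgeR adjusted p = 5.0e-05). Rps20, of the head of the small subunit, followed at 0.56 ± 0.08 and Rps14, of its platform, at 0.50 ± 0.10. All Mu libraries were exceeded by 13 of the 15 Hu libraries for Rps20 and by 7 for Rps14.

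The acidic stalk proteins Rplp0, Rplp1 and Rplp2, which recruit elongation factors to the large subunit, were all called higher. Rplp0 had medians of 435 CPM in Mu and 501 CPM in Hu, where 11 of the 15 libraries exceeded the whole Mu arm (0.29 ± 0.07, edgeR adjusted p = 0.00253). Rplp1, the most abundant member per length in muscle at 852 CPM per kb, was at 277 to 491 CPM in Mu and 329 to 622 CPM in Hu. Its arms overlapped widely, and its call was the weakest of the stalk genes (0.28 ± 0.10, edgeR adjusted p = 0.0381); it was lost in 13 of the 27 fits that left out 1 library. Rpl5 and Rpl11, which bind 5S ribosomal RNA and, when free, the p53 regulator Mdm2, were higher by 0.35 ± 0.05 and 0.33 ± 0.06, each with 14 of the 15 Hu libraries higher than the highest Mu library. Among members chosen for roles in signalling, Rps6, the substrate of S6 kinase, was higher by 0.35 ± 0.07, Rpl13a by 0.42 ± 0.07 and the laminin-binding Rpsa by 0.33 ± 0.06. Rplp0, Rpl13a, Rps18, Rpl4, Rpl19 and Rps29, which often serve as reference genes in PCR, were all called higher in Hu muscle, by 0.29 to 0.45.

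The members not called in muscle were Rpl3l, Rpl7l1, Rps2 and Rpl34. Rpl34 (0.24 ± 0.10, edgeR adjusted p = 0.0689) had a difference near that of called members, while Rps2 stood at 0.06 ± 0.06 and Rpl7l1 at -0.02 ± 0.04. Rpl7l1 ran from 27.2 through 30.2 to 37.2 CPM in Mu and from 26.3 through 29.1 to 34.7 CPM in Hu, with wide overlap. Rpl28 was the lowest of the called members, at 0.21 ± 0.06.

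Rpl3 and its muscle relative Rpl3l stood at opposite ends of the members. Per length of their longest principal transcript, Rpl3l averaged 366 CPM per kb in Mu and 349 CPM per kb in Hu muscle, and Rpl3 22.5 and 38.1 CPM per kb. Rpl3 ran from 22.7 through 29.5 to 44.9 CPM in Mu libraries and from 31.9 through 41.2 to 127 CPM in Hu libraries. The arms overlapped, with 6 of the 15 Hu libraries beyond the highest Mu value.
Its difference, 0.77 ± 0.19 (edgeR adjusted p = 0.00464), was the largest of the members. Rpl3l ran from 347 through 515 to 576 CPM in Mu and from 284 through 506 to 582 CPM in Hu, and did not pass the test (-0.08 ± 0.09, edgeR adjusted p = 0.556).
The Hu libraries with the most Rpl3 had the least Rpl3l, while in Mu this held for 1 library. In Hu, Rpl3 was highest at ZT 6 in replicate 1 (127 CPM) and at ZT 14 in replicate 2 (96.95 CPM), where Rpl3l was at 356 and 284 CPM. In Mu, Rpl3 was highest at ZT 2 in replicate 2 (44.9 CPM), where Rpl3l was at 347 CPM, the lowest of the arm. The next highest in Mu, replicate 1 at ZT 10 (36.99 CPM of Rpl3), had a high Rpl3l of 542 CPM. The pair was picked because these values showed the pattern, so correlations on log2 CPM are given as a description, with no test. Pearson's r was -0.861 and Spearman's rho -0.804 over the 15 Hu libraries, and r was -0.719 without the 2 libraries farthest from the median of Rpl3. Over the 12 Mu libraries, r was -0.601, rho -0.336 and r without 2 libraries -0.27, so the relation in Mu rests on those libraries.

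**Figure D2:**
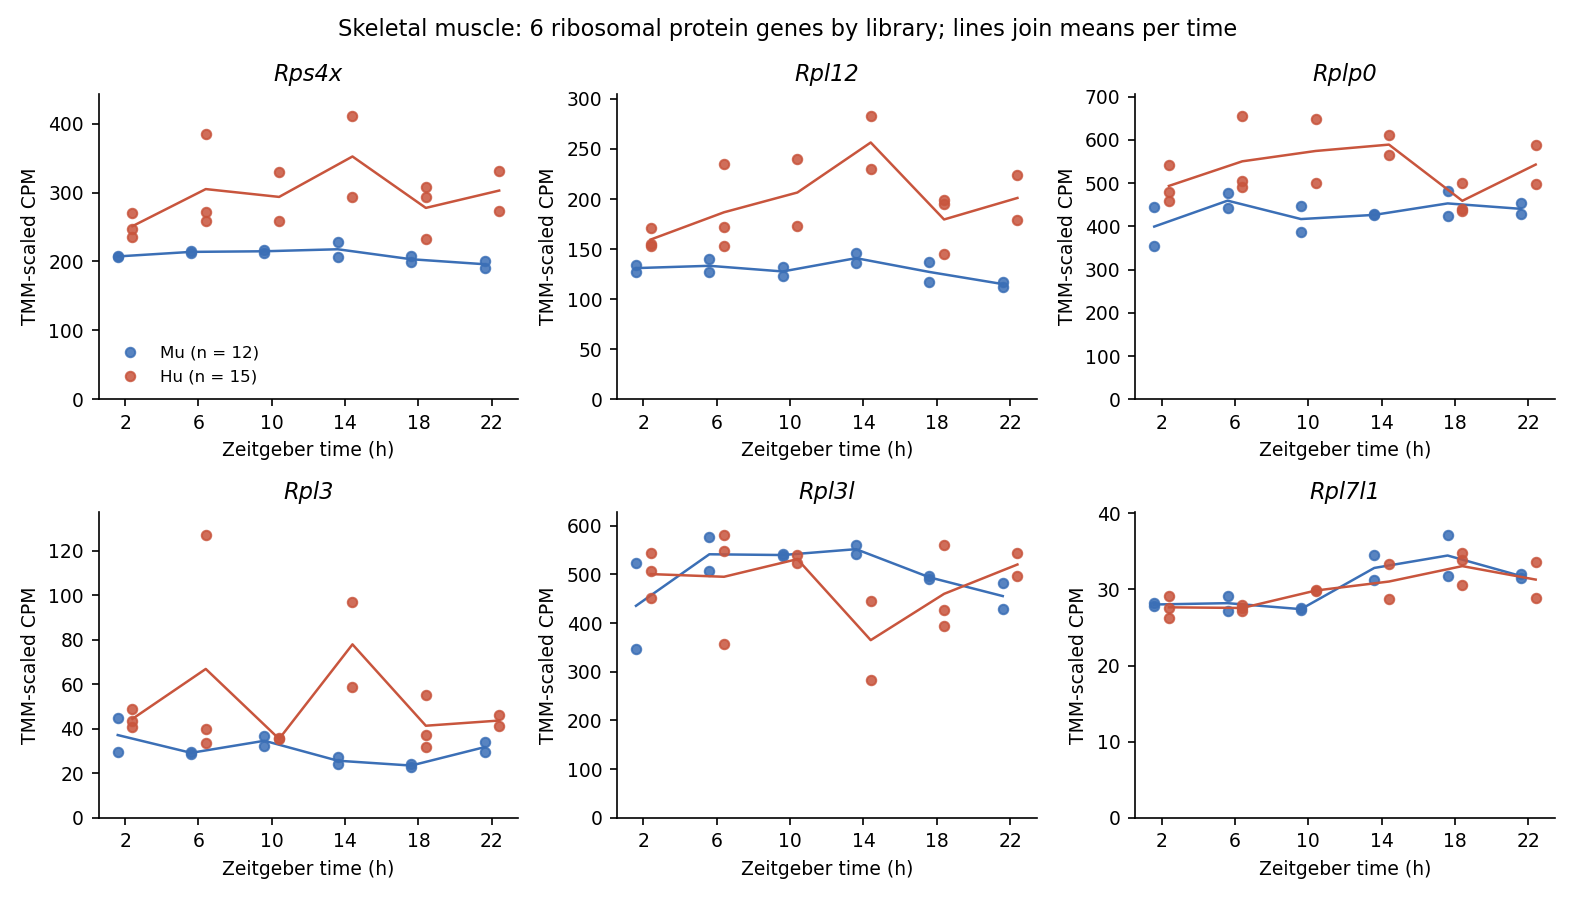
TMM-scaled CPM (vertical axes, from 0) of 6 ribosomal protein genes in skeletal muscle against zeitgeber time (h), with 1 point per library (Mu blue, n = 12; Hu red, n = 15) and lines through the means per time. Rps4x is higher in all Hu libraries, Rpl3 is highest in the Hu libraries in which Rpl3l is lowest, and Rpl7l1 overlaps between the arms.

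Both members of 2 other paralog pairs were called higher in muscle. Rpl22 and Rpl22l1 were higher by 0.32 ± 0.06 and 0.43 ± 0.07, and Rps27 and Rps27l by 0.45 ± 0.08 and 0.25 ± 0.06. Rpl7 was higher by 0.30 ± 0.06, where Rpl7l1 was at -0.02 ± 0.04. Whether the members of a pair differ from each other was not tested.

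Markers of other cells moved in the same muscle libraries, where 13.5% of all genes tested were called higher and 13.3% lower. Of 5 fat markers, 3 were higher in Hu and 0 lower (median difference 2.12), and their summed level ran from 136 to 2150 CPM in Mu and from 227 to 2679 CPM in Hu. Of 6 macrophage markers, 4 were tested and all 4 were higher, with sums of 18.03 to 58.9 CPM in Mu and 30.7 to 86.8 CPM in Hu. Slow fibre markers had 2 of 6 lower in Hu and 0 higher, and fast fibre markers 2 of 6 higher and 0 lower.
The highest member shares among Hu muscles were 2.167% at ZT 14 in replicate 2, 2.025% at ZT 6 in replicate 1 and 1.703% at ZT 14 in replicate 1. The ZT 6 library also held 9680 CPM of red cell markers, against 92.9 to 438 CPM in the other Hu libraries and up to 700 CPM in Mu, and 745 CPM of lymphocyte and granulocyte markers. Fat markers summed to 1520 CPM in it and to 2220 CPM at ZT 14 in replicate 2, and to 2150 CPM in the Mu library with the most Rpl3. The library with the most fat markers, Hu replicate 1 at ZT 18 with 2680 CPM, had a member share of 1.54%. Without the 3 Hu libraries of highest member share, 74 of the 81 members were still called higher and the median difference was 0.29. Of all 14061 genes tested in that fit, 1587 were called higher and 1730 lower. The part of fat and blood in these differences was not tested.

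Other genes of translation were examined beside the members in muscle, from lists of translation factors and TOP messengers, ribosome assembly, RNA polymerase I and signalling to translation. For comparison, 13.5% of all 14197 genes tested in muscle were called higher and 13.3% lower. Of 17 translation factors and other TOP messengers, 12 were higher in Hu and 0 lower, led by Eef1a1 (0.47 ± 0.15), the elongation factor that brings transfer RNA to the ribosome, and Hnrnpa1 (0.31 ± 0.09). Of 35 ribosome assembly genes, 10 were higher and 0 lower, led by the nucleolar chaperone Npm1 (0.28 ± 0.09) and Nop58 (0.27 ± 0.10). Of 14 genes of RNA polymerase I, which transcribes ribosomal RNA, 4 were higher and 0 lower, led by Taf1d (0.38 ± 0.11). Of 18 regulators, 2 were higher and 3 lower, counts near the shares of all genes. Myc (1.17 ± 0.18, edgeR adjusted p = 0.000125) and the translation repressor Eif4ebp1 (0.90 ± 0.20) were the ones higher in Hu. The 3 lower ones are not named here. Fau and Rack1, parts of the ribosome that the symbol pattern leaves out, were each higher by 0.38. Of 78 mitochondrial ribosomal protein genes, by contrast, 1 was higher and 29 were lower, with a median of -0.11.

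The level difference in muscle was set against those in the brain regions in 1 edgeR fit over muscle, ARC and SCN. It was higher in muscle than in ARC for 75 of 81 members and lower for 0, where 5.99% of 16040 genes were called higher. It was higher in muscle than in SCN for 47 of 81 and lower for 0, where 6.03% of genes were called higher. Rpl3 had the largest of these contrasts, at 0.79 against ARC and 0.67 against SCN. Libraries of different tissues may share an animal, which this fit does not take into account.

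**Figure D3:**
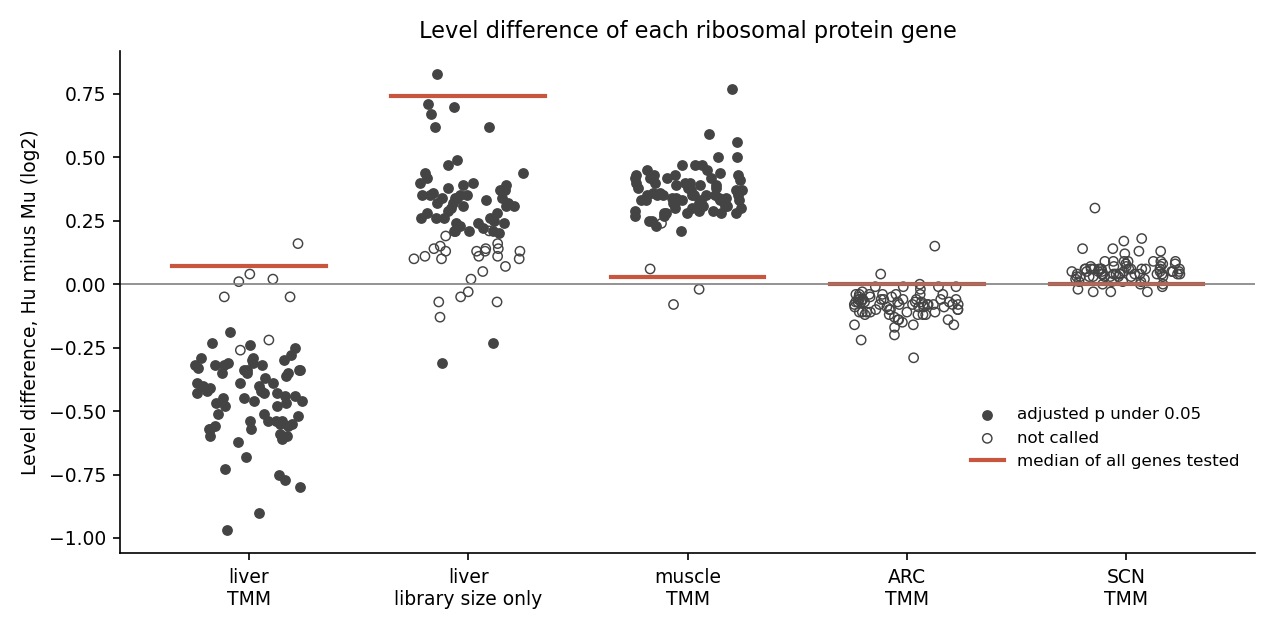
Level difference of each ribosomal protein gene (vertical axis, Hu minus Mu, log2) in liver under TMM and under library size only, and in muscle, ARC and SCN under TMM, with 1 point per gene, filled where the edgeR adjusted p was under 0.05, and a red bar at the median of all genes tested. Muscle members centre on 0.35, liver members centre on -0.42 under TMM and on 0.26 under library size only, below the bar in both, and ARC and SCN members lie around -0.08 and 0.05 with no filled point.

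In liver, the direction of the difference depended on how libraries were scaled. Members were lower than the median mouse gene under each scaling tried. A scaling factor shifts all genes of a library alike, so this gap could hardly change between scalings of the same genes. Its agreement between scalings is therefore no separate evidence. With TMM, 72 of 80 members were called lower in Hu liver and 0 higher, with a median of -0.42, where 37.0% of 14977 genes were called lower and 42.5% higher. With library size only, 53 were called higher and 2 lower, with a median of 0.26, where 10877 of the 14977 genes were called higher and 1938 lower. The median of all genes tested was 0.07 with TMM and 0.74 with library size only, a shift of the whole table. Of all calls, 53.5% were higher in Hu with TMM, 84.9% with library size only, 64.2% with the upper quartile and 21.7% with library size over human and mouse rows. Relative to the median of all genes, members stood at -0.48 with TMM, with library size only and with the upper quartile, and at -0.43 with library size over human and mouse rows. They stood at -0.73 with DESeq2, which kept 19689 genes and not 14977, and at -0.59 with edgeR without its low-count filter. As a plain share of mouse counts, without any composition factor, members took 0.990 to 1.94% in Mu (median 1.18%) and 1.23 to 1.99% in Hu (median 1.49%), with overlap between the arms. TMM factors, which multiply the library size, ran from 0.731 to 0.875 in Mu and from 1.03 to 1.81 in Hu livers.
Mouse cells in the arms are not the same mixture. Of 8 hepatocyte markers, 7 were lower in Hu mouse rows and 0 higher, with sums of 90210 to 122500 CPM in Mu and 7566 to 84950 CPM in Hu. Macrophage (5 of 6), sinusoidal endothelial (5 of 5), stellate (6 of 6) and bile duct markers (5 of 5) were higher with TMM, with 0 lower. With library size over human and mouse rows, hepatocyte markers were lower in 8 of 8, stellate and bile duct markers were higher in 4 of 6 and 5 of 5, and macrophage and endothelial markers turned, with 2 of 6 and 1 of 5 lower and 0 and 1 higher. How the mixture bears on the members was not tested. How reads that match both species were assigned is not given in the sources used here.

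The members spread over more than 1 log2 unit in liver. Rpl22l1, the paralog of Rpl22, ran from 33.2 through 41.8 to 68.5 CPM in Mu and from 15.1 through 20.1 to 36.6 CPM in Hu, so that all but 1 Hu liver lay under the Mu range. It had the lowest difference, -0.97 ± 0.13 with TMM (edgeR adjusted p = 3.3e-07) and -0.31 with library size only.
Rpl7l1 ran from 61.3 through 75.8 to 89.3 CPM in Mu and from 31.2 through 38.2 to 52.4 CPM in Hu. All 15 Hu livers were below all Mu livers (-0.90 ± 0.08, edgeR adjusted p = 2.7e-10, and -0.23 with library size only). With TMM, Rpl28 and Rpl7a were the other members without overlap, and such a separation downwards held for 3 of 80 members and for 12.5% of the genes tested. With library size only it held for 0 of 80 members and 3.67% of the genes, a separation upwards held for 3 members and 26.2% of the genes, and Rpl28 and Rpl7a stood at -0.05 and 0.07.
Rpl35a, Rps9 and Rpl37a followed with TMM at -0.80 ± 0.10, -0.77 ± 0.12 and -0.75 ± 0.12, and stood at -0.13, -0.07 and -0.07 with library size only.

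The 8 members not called with TMM were Rpl12, Rpl13a, Rpl15, Rpl34, Rplp0, Rps12, Rps19 and Rps24. Rplp0 ran from 277 through 311 to 470 CPM in Mu and from 256 through 349.6 to 437 CPM in Hu (0.04 ± 0.09), while the other stalk genes were called lower, Rplp1 at -0.24 ± 0.11 and Rplp2 at -0.43 ± 0.11. With library size only, Rplp0 stood at 0.70 and Rplp1 at 0.44. Rpl12 was at the top of the members in liver, at 0.16 ± 0.10 with TMM and 0.83 with library size only. It turned to -0.53 with library size over human and mouse rows, under which all 80 of 80 members and 8978 of 14732 genes were called lower. Of the PCR reference genes, Rpl4 (-0.33 ± 0.07), Rpl19 (-0.31 ± 0.09), Rps18 (-0.35 ± 0.12) and Rps29 (-0.60 ± 0.12) were called lower with TMM, and Rpl13a (-0.26 ± 0.13, edgeR adjusted p = 0.0586) and Rplp0 were not. Of the other lists, with TMM, 13 of 17 translation factors and TOP messengers were lower and 3 higher, and 14 of 35 assembly genes were lower and 4 higher. Of 78 mitochondrial ribosomal protein genes, 75 were lower and 0 higher, where 37.0% of all genes were called lower and 42.5% higher. With library size only these turned to 1 lower and 11 higher of the translation factors and TOP messengers and 0 lower and 30 higher of the assembly genes. Of the mitochondrial genes, 37 were then lower and 6 higher, and of all 14977 genes, 1938 were lower and 10877 higher. The lowest of the translation factors was Eif3f (-0.98 ± 0.07 with TMM, -0.28 with library size only), and Hnrnpa1 was the highest (0.57 ± 0.07 and 1.26, and -0.18 with library size over human and mouse rows).

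Daily rhythm was tested as a cosine of 24 h within each arm. In Mu liver, ribosomal protein messengers were high at ZT 2 to 10 and low at ZT 14 to 22. Mean member shares were 1.568, 1.479 and 1.492% of mouse counts at ZT 2, 6 and 10, and 1.127, 1.028 and 1.093% at ZT 14, 18 and 22. A rhythm was called for 27 of 80 members, where 17.3% of all genes were called, with fitted peaks between ZT 4.44 and ZT 6.13 and amplitudes (mean to peak) of 0.32 to 0.54 log2, or 1.56-fold to 2.13-fold from trough to peak. The fitted peak lay between ZT 4 and 8 for 77 of the 80, called or not. By subunit, 15 of 32 small and 12 of 48 large members were called.

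Rpl38, a small protein on the surface of the large subunit, had the smallest p. In Mu livers it averaged 120.5, 101.7 and 94.2 CPM at ZT 2, 6 and 10 and 63.2, 57.4 and 71.6 CPM at ZT 14, 18 and 22, with a peak at ZT 4.84 (amplitude 0.53, edgeR adjusted p = 0.00816). The pair of libraries at ZT 2 lay far apart, at 172 and 68.7 CPM.
Rps14 (amplitude 0.54, peak ZT 5.32, edgeR adjusted p = 0.0147) and Rps21 (0.49, ZT 5.20, edgeR adjusted p = 0.0158), both of the small subunit, came next. Rplp1 and Rplp2 were called with amplitudes of 0.48 and 0.47. Rplp0 was not (0.26, edgeR adjusted p = 0.0993), and Rpl4, the longest member, had an amplitude of 0.06 with levels of 489 to 541 CPM over the 6 times.

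The number called in Mu liver leaned on single libraries. It was 1 without replicate 2 at ZT 6, 2 without replicate 2 at ZT 18, 6 without replicate 2 and 11 without replicate 1 at ZT 14, 8 without replicate 1 at ZT 18, 9 without replicate 1 at ZT 22, 14 without replicate 2 at ZT 10 and 17 without replicate 1 at ZT 2. It was 46 without replicate 2 at ZT 2 and 47 without replicate 1 at ZT 6. Replicate 1 at ZT 2 and replicate 2 at ZT 6 had the highest member shares of the Mu livers, 1.942 and 1.661%. Rpl38 was called under each of these 27 omissions.

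In Hu liver, mouse members showed no rhythm past the threshold with TMM. With library size over human and mouse rows, 42 of 80 were called in Hu liver and 0 in Mu liver. That scaling called 8605 of 14732 genes in Hu liver and 85 in Mu liver. Under it a mouse row also follows the mouse share of its library. Human rows took 15.86 to 73.94% of counts at ZT 2, 24.96 to 65.29% at ZT 6 and 66.33 and 81.33% at ZT 10. They took 67.88 and 79.76% at ZT 14, 53.68 to 93.07% at ZT 18 and 42.72 and 52.5% at ZT 22. The part of this share in the calls was not tested. Mean member shares of mouse counts ran from 1.303% at ZT 22 to 1.649% at ZT 18, and Rpl38 averaged between 55.6 and 68.9 CPM over the times. By edgeR with TMM, 0 of 80 members were called, 0 had an unadjusted p under 0.05 and DESeq2 also called 0, where 0.167% of all genes were called by edgeR. The fitted amplitude was smaller in Hu than in Mu for 78 of 80 members, with medians of 0.07 and 0.32. The difference in rhythm itself was called for 0 of 80 by edgeR and 0 by DESeq2, with 19 under an unadjusted p of 0.05, where 1.28% of all genes were called by edgeR. Rps14 (edgeR adjusted p = 0.142), Rps27 (0.1545) and Rps29 (0.167) had the smallest p for that difference. The rhythms of the arms were thus not shown to differ for any member, although the fitted amplitudes were smaller in Hu with TMM.

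**Figure D4:**
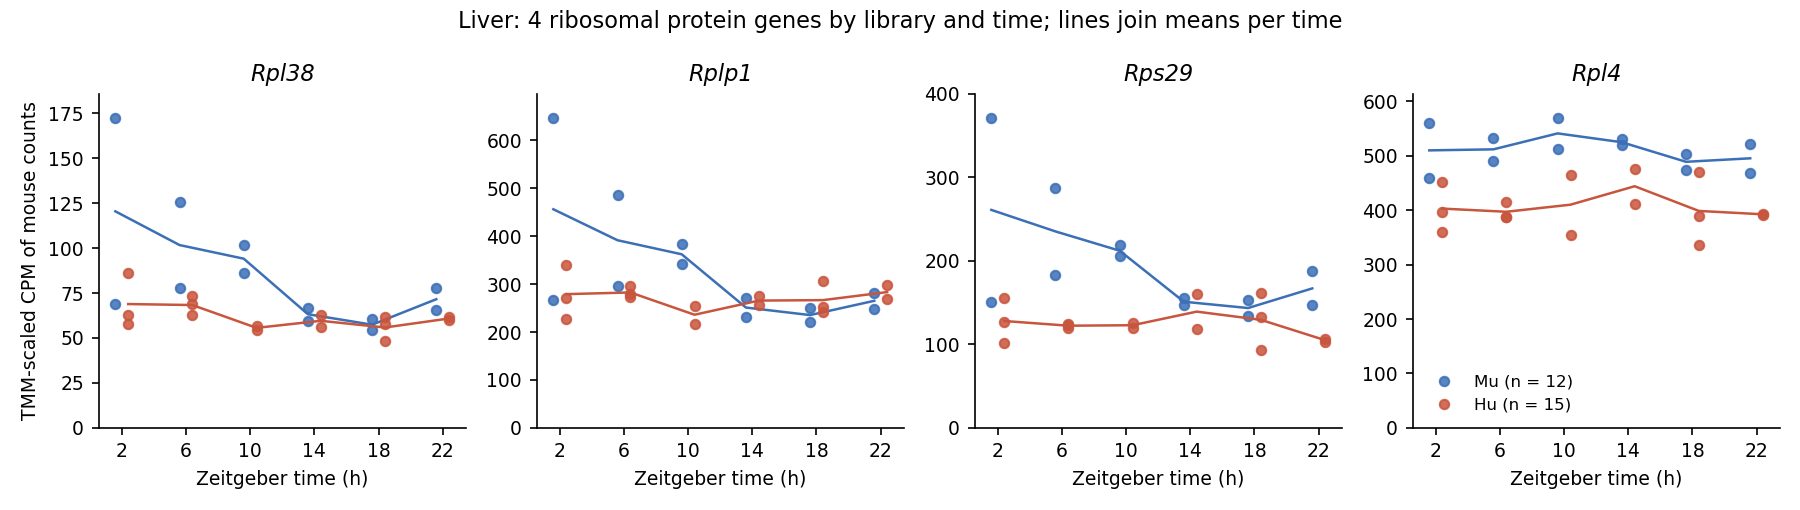
TMM-scaled CPM of mouse counts (vertical axes, from 0) of 4 ribosomal protein genes in liver against zeitgeber time (h), with 1 point per library (Mu blue, n = 12; Hu red, n = 15) and lines through the means per time. Mu means of Rpl38, Rplp1 and Rps29 are higher at ZT 2 to 10 than at ZT 14 to 22, with wide spread at ZT 2, those of Rpl4 stay between 489 and 541 CPM, and the Hu minus Mu difference turns positive for all 4 with library size only.

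In muscle, Rpl7l1 was the only member with a rhythm past the threshold. It averaged 27.4 to 28.2 CPM at ZT 2, 6 and 10 and 31.7 to 34.4 CPM at ZT 14, 18 and 22 in Mu, with a peak at ZT 17.9 (amplitude 0.17, edgeR adjusted p = 0.0269). In Hu it averaged 27.6 CPM at ZT 2 and 33.05 CPM at ZT 18, with a peak at ZT 17.1 (amplitude 0.13, edgeR adjusted p = 0.0376). Of all genes, 5.31% were called rhythmic in Mu and 7.78% in Hu muscle, against 1 of 81 members in each. The call was lost in Mu without any 1 of 5 libraries, and in Hu the count ran from 0 to 5 without 1 library. A different rhythm was called for 0 of 81 members by edgeR and 0 by DESeq2, with 1 (Rpl34) under an unadjusted p of 0.05, where 0.0704% of all genes were called by edgeR. Of the 35 ribosome assembly genes, 13 were called rhythmic in Hu muscle and 1 in Mu, and 0 had a different rhythm.

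In ARC, no member passed the test of level. Their share ran from 1.17 through 1.38 to 2.13% in Mu and from 1.28 through 1.34 to 1.58% in Hu, with the Hu range inside that of Mu. The highest value, 2.13%, was that of Mu replicate 1 at ZT 14, well above the next Mu library at 1.525%. By edgeR 0 of 80 members were called, with 1 under an unadjusted p of 0.05, and DESeq2 called 0, where 0.00663% of 15079 genes were called higher and 0.0% lower by edgeR. The median difference was -0.08, with 78 of 80 members below 0, and it was -0.02 without that Mu library. Rps29, the shortest member after Rpl41 and Rpl39, had the lowest difference, -0.29 ± 0.14, with 47.1 to 134.7 CPM in Mu and 44.4 to 76.9 CPM in Hu. Rhythm was called by edgeR for 0 of 80 in Mu, 0 in Hu and 0 for the difference, with 0 under an unadjusted p of 0.05 in each and 0 by DESeq2, where 1.41%, 0.0995% and 0.0% of all genes were called.

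In SCN, shares ran from 1.06 through 1.16 to 1.34% in Mu and from 1.12 through 1.19 to 1.34% in Hu, with near-complete overlap. By edgeR 0 of 80 members were called for level, with 2 under an unadjusted p of 0.05, and DESeq2 called 0, where 0.0% of 15006 genes were called higher and 0.0% lower by edgeR. The median difference was 0.05, with 75 of 80 members above 0. The largest was that of Rpl34, 0.30 ± 0.15, at 32.4 to 79.8 CPM in Mu and 35.4 to 90.1 CPM in Hu, where 4 of the 10 libraries exceeded the Mu range.
Rhythm in Mu was called by edgeR for 0 of 80 members, where 0.207% of all genes were called, although 31 members had an unadjusted p under 0.05 and DESeq2 called 7. Rps21 came nearest (amplitude 0.31, peak ZT 1.16, edgeR adjusted p = 0.0782), and 61 of the 80 fitted peaks lay between ZT 22 and ZT 3. In Hu, rhythm was called by edgeR for 0 of 80, with 3 under an unadjusted p of 0.05 and 0 by DESeq2, where 0.00666% of all genes were called. A different rhythm was called for 0 of 80 by either tool, with 4 under an unadjusted p of 0.05, where 0.0% of all genes were called by edgeR. Rps29 had the smallest p for that difference, with fitted amplitudes of 0.46 in Mu and 0.11 in Hu and levels of 30.4 to 88.8 CPM in Mu and 50.6 to 78.7 CPM in Hu.

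Shorter members tended to have larger fitted amplitudes in liver, ARC and SCN of the Mu arm. Coding length (GENCODE M21, longest principal coding sequence) ran from 75 bases in Rpl41 to 1257 in Rpl4. Across the 80 members, Spearman's rho between coding length and fitted amplitude in Mu was -0.598 in liver, -0.596 in SCN and -0.551 in ARC. In Hu it was -0.0407 in liver, 0.225 in SCN and -0.102 in ARC. The ARC amplitudes are those of members of which 0 had an unadjusted p under 0.05. Against the level difference, rho was 0.635 in ARC, -0.459 in SCN and 0.0233 in liver, and across the 81 members of muscle it was -0.126. Without Mu replicate 1 at ZT 14, which moved the ARC median from -0.08 to -0.02, rho in ARC was 0.573 for the level difference and -0.456 for the amplitude in Mu. These correlations are across genes that share their libraries, so they describe these samples and carry no test.

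**Figure D5:**
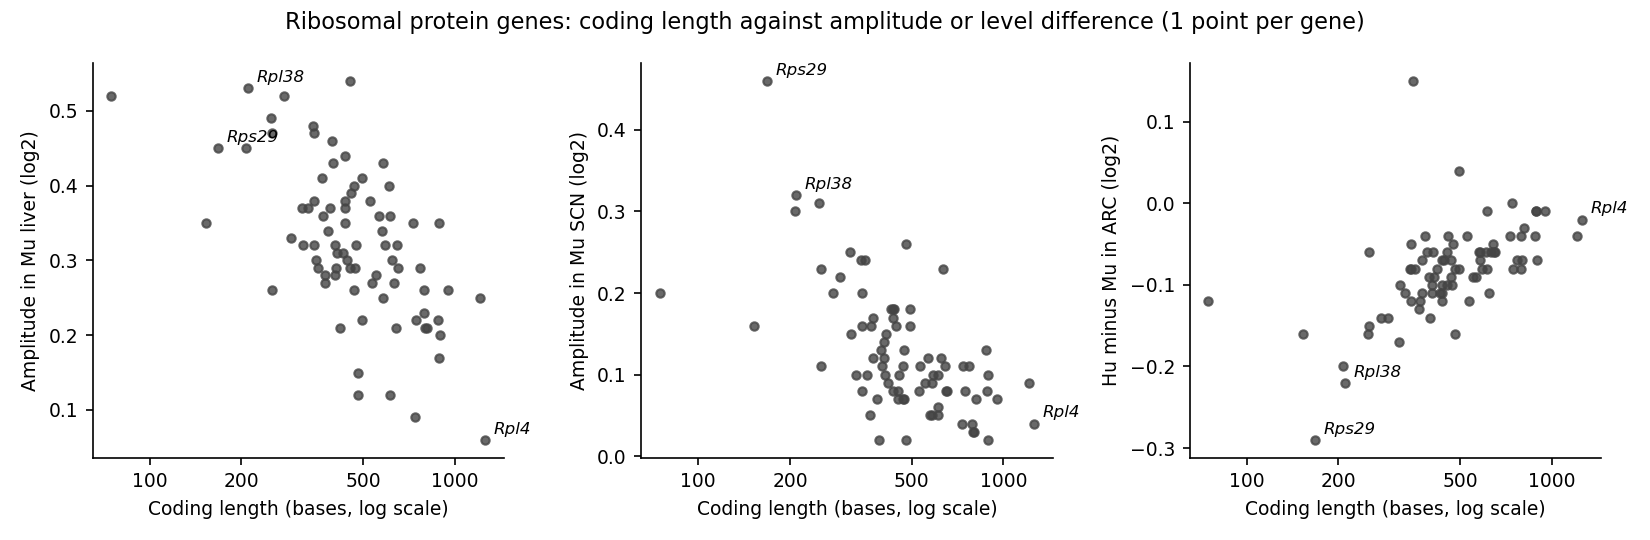
Coding length (horizontal axis, bases, log scale) of the ribosomal protein genes against amplitude in Mu liver, amplitude in Mu SCN and the Hu minus Mu level difference in ARC (vertical axes, log2), with 1 point per gene and Rps29, Rpl38 and Rpl4 named. Rps29 and Rpl38, which are short, sit at large amplitudes and at the lowest ARC differences (-0.29 and -0.22), and the long Rpl4 sits near 0 in each panel.

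Processed copies of these genes limit how exactly single members can be read. GENCODE M21 names 300 pseudogenes after 60 of the 82 members, and the tables hold 12 of them (13 in liver), with 0.0162 to 0.0597% of the members' summed counts. How reads that match a gene and its copy were counted is not given in the sources used here, so levels of single members are uncertain.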

How the data were processed

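Ribosomal protein genes were read from 2 tables of raw counts per gene that the authors deposited, with no normalization; the values are whole numbers. Per the labels' protocols, RNA was purified on silica columns and libraries kept strand. Per the submitters' processing notes, STAR was used with mouse and human builds; versions, counting program and annotation are not given in the sources used here. Ensembl identifiers were matched to symbols in a supplied table (19615 of 19689 in liver, 20329 of 20415 elsewhere). The members and lists were chosen with earlier results of these data known. Named members were those with set roles (stalk, paralogs, 5S particle, signalling, reference genes), the 5 highest and 5 lowest called differences and the 3 smallest p-values for each rhythm test per tissue, and those nearest to 5 CPM. Genes named from other lists were taken from the 2 highest and 2 lowest called, not all of which are named. Rpl12 in liver, and Rps12, Rps2, Rpl28, Rpl7a, Rpl15, Rps19, Rps24 and the Rpl3 to Rpl3l relation, were singled out after their values were seen.

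Each tissue was fitted on mouse rows with edgeR 4.0.16 (R 4.3.3): filterByExpr by arm, TMM, and a model of arm plus a separate 24 h cosine and sine for each arm, with quasi-likelihood tests of level, of rhythm in each arm and of a different rhythm. Calls are Benjamini-Hochberg adjusted p under 0.05 over all genes. The scripts were tested on simulated data. DESeq2 1.42.0, other scalings, no filter, the replicate number as a block, ZT as a factor, each arm alone and omission of each library were alternatives. Chosen after seeing the data were the fits without Hu livers under 20 M mouse counts and without the 3 Hu muscles of highest member share, the joint fit over tissues, the mitochondrial list, the liver lists and arm overlaps under other scalings, and coding length in ARC without 1 library. In ARC and SCN, 1 Hu column each at ZT 22 (2 in all) was tied to its group only. Counting error is largest in the Hu livers with the fewest mouse counts (7.70 M at the lowest).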

Additional observations from a re-analysis of the deposited data

Results flagged for a closer look

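Replicate 1 of Hu ARC at ZT 18 was high, apart from the other 9 Hu ARC libraries, for Rpl13a, at 545.1 TMM-scaled CPM, and for Rpl29, at 14.09 CPM (next highest 476 and 12.09 CPM). Each gap to the next library was large for a group of 10. These were 2 of 56 values examined in Hu ARC and Hu SCN, where chance gives about 1 in 20. The same library had the highest summed member share of Hu ARC, 1.577%.

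By the edgeR test, the Hu minus Mu level difference was higher in muscle than in ARC for 75 of 81 members and 5.99% of 16040 genes. Against SCN it was higher in muscle for 47 of 81 members and 6.03% of the genes. Any sharing of animals between tissues is not part of that fit.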

How the results depend on the processing

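With library size only, 55 liver members differed in level (53 higher), beside 12815 of 14977 genes (10877 higher), and the members' median turned to 0.26. With library size over human and mouse rows the members' median was -1.12 and Rplp0 turned to -0.66. With library size only, the liver difference turned positive for Rpl10 (0.14), Rpl11 (0.11), Rpl13a (0.4), Rpl19 (0.36), Rpl22 (0.1), Rpl3 (0.22), Rpl36a (0.26), Rpl38 (0.26), Rpl39 (0.42), Rpl4 (0.34), Rpl41 (0.35), Rpl5 (0.33), Rpl7 (0.24), Rplp1 (0.44), Rplp2 (0.26), Rps14 (0.13), Rps18 (0.31), Rps21 (0.35), Rps27 (0.19), Rps27l (0.02), Rps29 (0.1), Rps4x (0.31), Rps6 (0.25) and Rpsa (0.39).

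Members rhythmic in Mu liver numbered 48 with the upper quartile (beside 2797 of 14977 genes) and 13 with no low-count filter (2176 of 19689 genes). They numbered 11 with each arm alone (beside 3928 genes) and 1 to 47 when single libraries were left out. With library size over human and mouse rows, 0 of 80 members and 85 of 14732 genes were called in Mu liver. In Hu liver that scaling called 42 of 80 members and 8605 of 14732 genes, and there mouse rows also follow the mouse share of each library. In muscle, members rhythmic in Mu numbered 0 with library size only and 0 with the upper quartile, and 0 to 1 without single libraries; those rhythmic in Hu numbered 0 with library size only, 0 with each arm alone and 0 to 5 without single libraries. DESeq2 called 7 members and 292 of 19207 genes rhythmic in Mu SCN. Members higher in muscle numbered 76 to 78 without single libraries, where the main fit called 1923 of 14197 genes higher. The cause of these changes was not tested.

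The labels tie no replicate number to a shared animal or day, and correlations of deviations between same-numbered libraries were over 0.1 in 7 of 12 pairs in liver (all 12 positive), 2 of 12 in muscle, 6 of 8 in ARC and 4 of 8 in SCN, so the numbers were not taken as pairs, which needed every pair over 0.1. With the replicate number as a block, 67 liver members were lower, beside 5356 of 14977 genes lower and 6163 higher. In muscle, 78 members were then higher, beside 1768 of 14197 genes higher and 1797 lower. That fit called 31 members and 2648 genes rhythmic in Mu liver, and 0 members and 770 genes in Hu muscle. Depth limits the shallowest Hu livers most. Without those under 20 M mouse counts, 66 members were lower, beside 5511 of 14936 genes lower and 6243 higher.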
